A study of Mus musculus with 12 samples.

Results

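The IL27 and gp130 cytokine receptor family is represented here by 8 genes of the 20457 in the deposited expression table. They were chosen by name, with no measured value in the rule, but with earlier results of these data known. They are the IL27 subunits Ebi3 and Il27, the IL27 receptor chain Il27ra and the shared signalling chain Il6st (gp130). The others are the partner chains Osmr, Lifr, Il6ra and Il11ra1. The study sorted hematopoietic stem cells from C57BL/6 mouse bone marrow by the presence of the IL27RA protein on the cell surface, at an old and a young age. Each library was made from 50 cells amplified with Smart-Seq2, which copies whole transcripts and adds no molecular identifiers. The 4 groups of 3 libraries were old IL27RA+ cells (28 months), old IL27RA- cells (28 months), young IL27RA+ cells (2 months) and young IL27RA- cells (2 months). No group was described as carrying an altered allele or receiving a treatment. Whether libraries of one group were taken from separate mice is not in the labels, so the p-values speak of the spread between libraries, and that spread may be technical. For old IL27RA- replicate 1, 1 label calls the mouse young, whereas its title and its age of 28 months place it with the old cells, where it was kept.

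Cytokines of this family bind a receptor chain of their own and signal through gp130, which passes the signal to JAK kinases and STAT factors. IL27 is a heterodimer of the EBI3 and IL27 chains and signals through IL27RA paired with gp130. Oncostatin M signals through OSMR paired with gp130, leukemia inhibitory factor through LIFR paired with gp130, while IL6RA and IL11RA1 carry IL6 and IL11 to gp130. In mouse marrow, gp130 cytokines are known to act on hematopoietic stem cells, and IL27 has been linked to stem cell expansion during infection.

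Old cells differed from young cells in 2 members of this family. Osmr was at or near 0 in all 6 young libraries and was expressed in all 6 old libraries, and Ebi3 was lower in all 6 old libraries than in any young library. All old libraries separated from all young libraries, in either direction, for 2.06% of genes tested. Of the 7 members with enough reads to be tested, these 2 passed the limma test at an adjusted p under 0.05 in old against young cells averaged over the sorted fractions, Osmr higher and Ebi3 lower. Over all 14723 genes tested, 1.88% were called in that comparison. The remaining members tested, Il27ra, Il6st, Il27, Il6ra and Il11ra1, did not pass. No member passed in any comparison of the sorted fractions. These comparisons called 0.190% of all genes averaged over the ages, 0.0272% in old cells and 0.0204% in young cells. The mRNA of the receptor used for the sort stood at overlapping levels in IL27RA+ and IL27RA- cells.

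**Figure D1:**
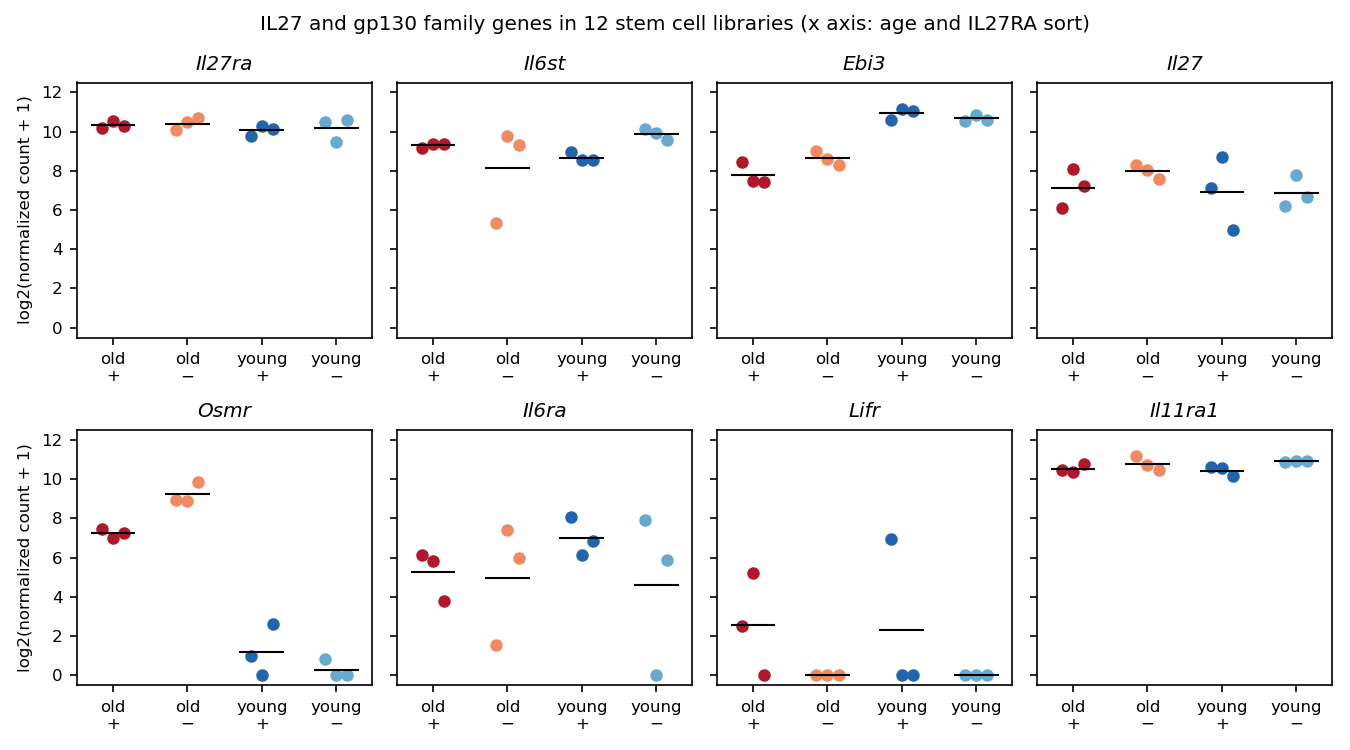
Level of each family gene in every library, as log2(normalized count + 1) on the y axis, with 1 point per library, the group mean as a line, and the groups on the x axis from left to right as old IL27RA+, old IL27RA-, young IL27RA+ and young IL27RA-. Osmr has its 6 old points above its 6 young points, Ebi3 has its 6 old points below its 6 young points, and the points of Il27ra overlap in all 4 groups.

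All values below come from the authors' log2 table. A normalized count is the number of reads divided by the library's size factor, and each difference is one of log2(normalized count + 1), a scale that understates the change of genes near 0. Reads in genes numbered 11669083 to 24153167 per library. A count of 0 was taken to allow up to 3 reads, which equal between 1.93 and 3.77 normalized counts, according to library depth. Amplified reads are not independent molecules, so read ratios and floors cover counting error only. All 13 stem cell markers of the list used, among them Procr, Mecom, Hlf and Slamf1, had reads in every group, and their summed level was 65777 to 91347 normalized counts per library. Old IL27RA- replicate 1 stood apart in holding 312300 normalized counts of the antibody light chain gene Igkc, against 18.8 to 248 in the other 11 libraries, and it and young IL27RA- replicate 2 had the lowest limma library weights (0.542 and 0.434). In old IL27RA- replicate 1 the 7 B and plasma cell genes present of 10 listed summed to 374260 normalized counts, against a group median of 1462. Within that group Jchain, an antibody joining chain gene, reached 60227 in 1 library (median 13.5), and Ighm was at 0. The part of such cells in the family's values was not tested. Markers of some other marrow cells are given beside single results, and the part of those cells was not tested either.

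Osmr encodes the chain that pairs with gp130 to form the oncostatin M receptor. It stood at 172, 125 and 152 normalized counts in old IL27RA+ libraries and at 493, 474 and 919 in old IL27RA- libraries. In young cells it stood at 0.940, 0 and 5.02 normalized counts in IL27RA+ libraries, from 1, 0 and 4 reads, and at 0.796, 0 and 0 in IL27RA- libraries, from 1, 0 and 0 reads. Every old library was therefore above every young library, and a separation of all 6 old from all 6 young libraries in either direction was found for 2.06% of genes tested. Only the 5.02 of young IL27RA+ replicate 3 exceeded the level of 3 reads.

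Averaged over the fractions, Osmr was higher in old cells by 7.50 ± 0.80 on the log2 scale (SE, 95% interval 5.79 to 9.20, limma adjusted p = 0.000224). Within IL27RA+ cells the difference was 6.04 ± 1.13 (interval 3.64 to 8.45, adjusted p = 0.0341), in a comparison that called 0.421% of all genes. Within IL27RA- cells it was 8.95 ± 1.13 (interval 6.54 to 11.4, adjusted p = 0.00410), in a comparison that called 0.672%. Because the young values are so low, these fitted differences depend on the added pseudocount. Summed over libraries and adjusted for depth, old IL27RA+ cells had 447 reads against 5 reads in young IL27RA+ cells, a ratio of 82.3 with a 95% counting interval of 35.0 to 255. Old IL27RA- cells had 1701 reads against 1 read in young IL27RA- cells, a ratio of 2557 with a counting interval of 458 to 101072. In these bulk samples, fewer cells that express a gene and less RNA per cell cannot be told apart.

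The call for Osmr in IL27RA+ cells was close to the threshold. It was lost when any old IL27RA+ library was left out, with an adjusted p of 0.177, 0.174 and 0.157 without replicates 1, 2 and 3. It was also lost without old IL27RA- replicates 1, 2 and 3 (adjusted p of 0.0516, 0.0707 and 0.0637) and without young IL27RA+ replicates 1 and 2 (0.0681 and 0.119). With limma voom on recovered reads the adjusted p was 0.106. The 3 old IL27RA+ libraries were all above the 3 young IL27RA+ libraries, as was so in either direction for 16.9% of genes. Leaving out a library cannot undo such a separation, so it is no check on the call.

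Within old cells, Osmr was lower in each IL27RA+ library (125 to 172 normalized counts) than in each IL27RA- library (474 to 919), a separation found in either direction for 12.6% of genes. The difference, IL27RA+ minus IL27RA-, was -2.003 ± 1.13 on the log2 scale (interval -4.41 to 0.40, unadjusted p = 0.0961, limma adjusted p = 1). The interval reaches 0, so the test did not distinguish the old fractions.

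Osmr is known from stroma and endothelium as well as from blood cells, so the lists for those cell types were set beside it. The 7 stroma genes present of 10 listed summed to 266 to 285 normalized counts in old IL27RA+ and 31.1 to 401 in old IL27RA- libraries, against 130 to 469 in young IL27RA+ and 145 to 560 in young IL27RA- libraries. Genes of the list at 0 were Col1a1 and Col3a1 in old IL27RA+, Cxcl12, Lepr, Col1a1 and Col3a1 in old IL27RA-, Kitl in young IL27RA+, and Cxcl12, Lepr and Col3a1 in young IL27RA- cells. Its members did not move together: of the 5 tested, 3 had a positive age difference averaged over the fractions, with a median of 0.89 (log2), and none was called. Within IL27RA+ cells 3 of the 5 had a positive age difference, and 1 was called, lower in old cells. The chemokine gene Cxcl12 averaged 0.319 normalized counts in old IL27RA+ cells, against 219 in young IL27RA+ cells. The collagen gene Col1a2 averaged 144 normalized counts in old IL27RA+ cells, against 11.6 in young IL27RA+ cells, and 76.2 in old IL27RA- cells, against 201.2 in young IL27RA- cells. The 9 endothelium genes present of 10 listed summed to 2110 to 2174 normalized counts in old IL27RA+ and 2814 to 3230 in old IL27RA- libraries, against 2941 to 4792 in young IL27RA+ and 3814 to 4635 in young IL27RA- libraries. Of the 8 endothelium genes tested, 5 had a positive averaged age difference, with a median of 0.55 (log2), and 1, Emcn, was called, lower in old cells. Kdr, an endothelial growth factor receptor, averaged 143 and 336 normalized counts in old IL27RA+ and old IL27RA- cells, against 58.6 and 39.0 in young IL27RA+ and young IL27RA- cells. The part of either cell type in the Osmr result was not tested.

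Ebi3 encodes the EBI3 chain, which joins the IL27 chain to form IL27 and the IL12A chain to form IL35. It stood at 343, 178 and 171 normalized counts in old IL27RA+ libraries and at 516, 391 and 313 in old IL27RA- libraries, against 1551, 2307 and 2094 in young IL27RA+ libraries and 1506, 1826 and 1566 in young IL27RA- libraries. The highest old library, at 516, was below the lowest young library, at 1506, a separation found in either direction for 2.06% of genes tested. Ebi3 was lower in old cells by a log2 difference of -2.59 ± 0.25 averaged over the fractions (SE, interval -3.13 to -2.06, limma adjusted p = 0.000131). The difference was -3.16 ± 0.35 in IL27RA+ cells (adjusted p = 0.00131) and -2.03 ± 0.35 in IL27RA- cells (adjusted p = 0.0173). The 3 old IL27RA- libraries were all below the 3 young IL27RA- libraries, where 14.5% of genes separated in either direction.

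The call for Ebi3 in IL27RA- cells was lost without old IL27RA- replicate 2 (adjusted p = 0.0665) and without old IL27RA- replicate 3 (0.0763), while its call in IL27RA+ cells was kept in all 12 fits that left out a library. The age difference in IL27RA+ cells minus that in IL27RA- cells was -1.13 ± 0.50 on the log2 scale (interval -2.20 to -0.06), which had an unadjusted p of 0.0398 and a limma adjusted p of 0.941. The same test for Osmr gave -2.90 ± 1.59 (interval -6.31 to 0.50, adjusted p = 0.941). No member and no gene of the whole table was called in this interaction (0% of 14723, by limma on the log2 values and by limma voom on recovered reads), with 762 genes at an unadjusted p under 0.05.

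EBI3 is known as a product of activated antigen-presenting cells. The 8 dendritic cell markers present of 10 listed summed to 5686 to 10232 normalized counts in old IL27RA+ and 9275 to 12345 in old IL27RA- libraries, against 2106 to 5788 in young IL27RA+ and 1908 to 7610 in young IL27RA- libraries. Most of the sum in each group was H2-Ab1 and the antigen presentation gene Cd74. Clec9a averaged 423 and 364 normalized counts in old IL27RA+ and old IL27RA- cells. It averaged 127 and 203 in young IL27RA+ and young IL27RA- cells. All 3 genes of the list that were tested had a positive averaged age difference, with a median of 1.69 (log2), and 1, Cd74, was called. Genes of the list at 0 were Itgax and Ccr7 in old IL27RA+, Itgax, Ccr9, Ccr7, Batf3 and Cd209a in old IL27RA-, Ccr9, Batf3 and Cd209a in young IL27RA+, and Itgax, Ccr9, Batf3 and Cd209a in young IL27RA- cells. The part of these cells in the Ebi3 result was not tested.

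The promoters of these 2 genes are shown because they are the members that differed with age, in opposite directions. Each is the RefSeq sequence of the mouse assembly GRCm38.p6 from 250 bases before to 50 bases after the annotated start, read 5′ to 3′ on the gene's strand. Capitals mark matches, on both strands, to the motifs searched: TTCNNNGAA for STAT factors, TGANTCA for AP-1, GGGNNNNNCC for NF-kB and AGATAA for GATA factors. Ebi3 lies at chr17:55952373-55952672 on the plus strand and Osmr at chr15:6874264-6874563 on the minus strand.
Ebi3: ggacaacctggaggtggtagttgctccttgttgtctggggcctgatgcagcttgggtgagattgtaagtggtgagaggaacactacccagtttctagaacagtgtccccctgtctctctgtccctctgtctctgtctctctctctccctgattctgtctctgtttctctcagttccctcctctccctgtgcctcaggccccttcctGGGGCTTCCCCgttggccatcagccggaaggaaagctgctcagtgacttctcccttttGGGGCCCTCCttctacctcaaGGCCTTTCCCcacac
Osmr: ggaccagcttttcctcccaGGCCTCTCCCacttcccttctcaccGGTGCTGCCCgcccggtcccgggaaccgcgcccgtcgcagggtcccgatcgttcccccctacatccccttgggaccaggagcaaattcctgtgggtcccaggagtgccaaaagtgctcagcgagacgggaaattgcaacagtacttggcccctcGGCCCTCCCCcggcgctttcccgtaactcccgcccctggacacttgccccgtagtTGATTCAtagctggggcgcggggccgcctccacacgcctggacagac
The Ebi3 window was 56.3% G or C, held 2 CG pairs and matched the NF-kB letters 4 times, counting overlapping matches, with no match to the other motifs. The Osmr window was 66.0% G or C, held 22 CG pairs, and matched the AP-1 letters once and the NF-kB letters 3 times. Of 32851 promoters of the same length, 50.8% held the NF-kB letters, 7.81% the AP-1 letters, 8.30% the STAT letters and 11.2% the GATA letters, and the median G or C content was 52.7%. Promoters were matched for 6 of the 8 members, and none of these windows held the STAT letters.

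Il27, the other chain of IL27, was scattered within the groups. It stood at 66.5, 271 and 148 normalized counts in old IL27RA+ libraries and at 310.1, 260.5 and 192 in old IL27RA- libraries, against 136, 411 and 30.1 in young IL27RA+ libraries and 72.4, 219.7 and 99.8 in young IL27RA- libraries. All the groups overlapped. The age difference averaged over the fractions was 0.65 ± 0.64 on the log2 scale (SE, interval -0.72 to 2.02, limma adjusted p = 0.704), so changes in either direction remain within the interval.

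The mRNA ratio of the IL27 chains was lower in old libraries, and it includes the Ebi3 levels given above. It was described only, without a test. Per kilobase of exon, the ratio of Ebi3 to Il27 had a median of 1.03 in old IL27RA+ libraries (range 0.582 to 4.56) and 1.44 in old IL27RA- libraries (1.33 to 1.47). It had a median of 10.1 in young IL27RA+ libraries (4.96 to 61.6) and 13.9 in young IL27RA- libraries (7.35 to 18.4). The highest old ratio, 4.56 in old IL27RA+, was below the lowest young ratio, 4.96.

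Il27ra encodes the chain that binds IL27 and was the protein used for the sort. It stood at 1148, 1498 and 1235 normalized counts in old IL27RA+ libraries and at 1075, 1430.2 and 1632 in old IL27RA- libraries, against 887, 1253 and 1122 in young IL27RA+ libraries and 1418, 711 and 1564 in young IL27RA- libraries. The lowest and the highest library were both IL27RA- libraries, and the fractions overlapped at both ages. The IL27RA+ minus IL27RA- difference averaged over the ages was -0.10 ± 0.23 (log2, SE, interval -0.58 to 0.39, limma adjusted p = 0.961). It was -0.08 ± 0.32 in old cells, and young cells had -0.11 ± 0.32. Il27ra differed between old and young cells by 0.24 ± 0.23 averaged over the fractions (interval -0.25 to 0.73, adjusted p = 0.690). The comparison of the sorted fractions averaged over the ages called 0.190% of all genes, that in old cells 0.0272% and that in young cells 0.0204%.

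Il6st encodes gp130. It stood at 566, 659 and 655 normalized counts in old IL27RA+ libraries and at 39.5, 881 and 633 in old IL27RA- libraries, against 491, 370.4 and 369.95 in young IL27RA+ libraries and 1118, 971 and 770.4 in young IL27RA- libraries. Old IL27RA- replicate 1, the library with the high Igkc level, held 41 Il6st reads and was lowest of all 12. Old IL27RA+ libraries were all above young IL27RA+ libraries, where 16.9% of genes separated in either direction. Young IL27RA+ libraries were all below young IL27RA- libraries, where 9.79% of genes did so. No limma test passed: the averaged age difference was -0.56 ± 0.57 (SE, adjusted p = 0.719), that in IL27RA+ cells 0.62 ± 0.81 (0.912), that in IL27RA- cells -1.74 ± 0.81 (unadjusted p = 0.0496, adjusted p = 0.398), and the IL27RA+ minus IL27RA- difference in young cells -1.21 ± 0.81 (0.728).

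Several of these differences rested on that library. Without old IL27RA- replicate 1, the Il6st age difference was 0.14 averaged over the fractions and -0.34 in IL27RA- cells. The IL27RA+ minus IL27RA- difference in old cells was 1.15 ± 0.81 with the library and -0.26 without it. The difference of the age differences was 2.36 ± 1.15 (unadjusted p = 0.0584) with the library and 0.95 without it.

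Il11ra1, the receptor chain for IL11, stood at similar levels in old and young cells. It stood at 1417, 1325 and 1743 normalized counts in old IL27RA+ libraries and at 2295, 1661 and 1429 in old IL27RA- libraries, against 1558, 1498 and 1129 in young IL27RA+ libraries and 1858, 1914 and 1957 in young IL27RA- libraries. Old and young libraries overlapped, and the averaged age difference was -0.01 ± 0.18 (log2, SE, interval -0.39 to 0.37, limma adjusted p = 0.991). Within young cells every IL27RA+ library was below every IL27RA- library, a separation found in either direction for 9.79% of genes. The difference was -0.47 ± 0.25 (interval -1.003 to 0.07, limma adjusted p = 0.651). Averaged over the ages that difference was -0.36 ± 0.18 (interval -0.74 to 0.02, unadjusted p = 0.0638, adjusted p = 0.662). Il11ra1 has a near-identical paralog, Il11ra2, and reads may have been split between them. Il11ra2 held 0 to 14 reads per library, against 900 to 3041 for Il11ra1.

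Il6ra, the receptor chain for IL6, was low and scattered. It stood at 68.4, 54.6 and 12.9 normalized counts in old IL27RA+ libraries and at 1.93, 166 and 61.5 in old IL27RA- libraries, against 267, 68.2 and 113 in young IL27RA+ libraries and 238, 0 and 56.6 in young IL27RA- libraries. The 3 libraries of 1 group reached from 0 to 238, and all groups overlapped. The averaged age difference was -0.69 ± 1.31 (log2, SE, interval -3.49 to 2.102, limma adjusted p = 0.858), which leaves changes of several log2 units in either direction within the interval.

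Lifr, the chain for leukemia inhibitory factor, had reads in 3 of 12 libraries and was not tested. Old IL27RA+ libraries had 4.62, 36.4 and 0 normalized counts, from 5, 38 and 0 reads, against 122, 0 and 0 in young IL27RA+ libraries, from 130 reads in replicate 1. All 6 IL27RA- libraries, old and young, were at 0, which allows up to 3 reads in each. All reads of Lifr were in IL27RA+ libraries, and 2 of 12 libraries reached the minimum of 10 normalized counts, short of the 3 needed for a test.

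**Figure D2:**
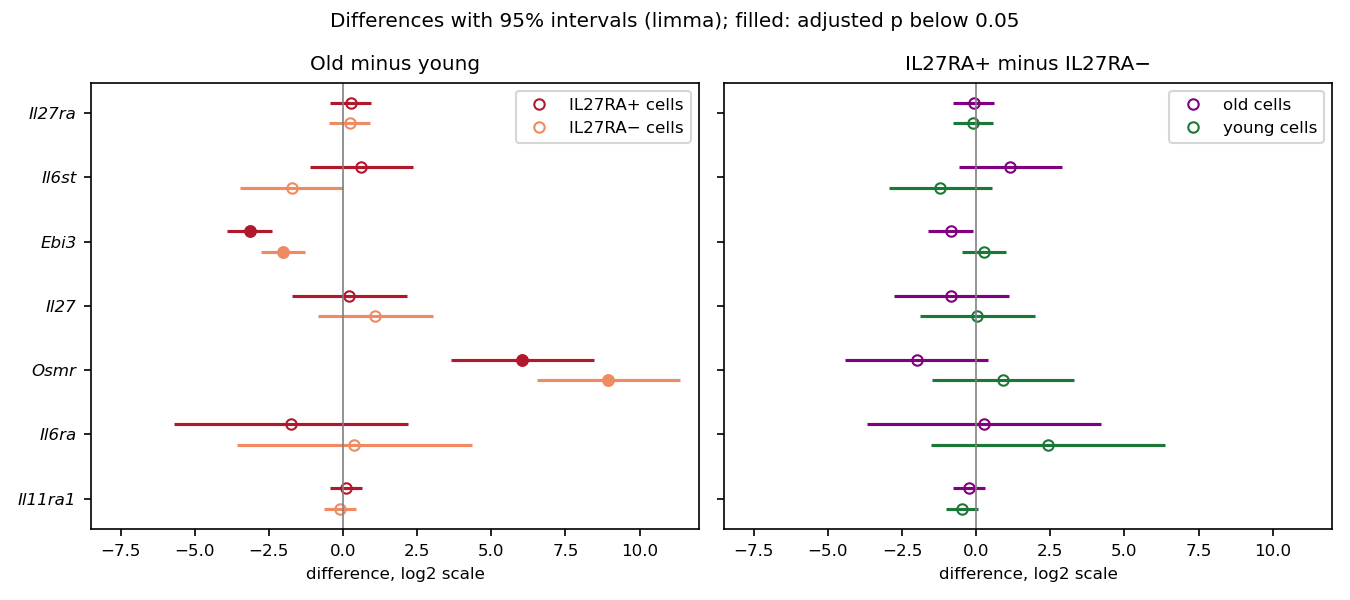
Differences on the log2 scale with 95% intervals from limma for the 7 tested family genes, old minus young on the left (IL27RA+ above IL27RA- for each gene) and IL27RA+ minus IL27RA- on the right (old above young), with filled points for an adjusted p under 0.05. The filled points are Ebi3 at -3.16 and -2.03 and Osmr at 6.04 and 8.95, and no point on the right is filled.

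The sorted fractions were distinguished by 0 of 7 members in each of the 3 comparisons of IL27RA+ with IL27RA- cells, by limma on the log2 values and by limma voom. By limma on the log2 values these comparisons called few genes of any kind. The shares of all genes were 0.190% averaged over the ages, 0.0272% in old cells and 0.0204% in young cells. At an unadjusted limma p under 0.05 there were 1174 of all 14723 genes averaged over the ages, 792 in old cells and 1209 in young cells. Among the members there was 1, Ebi3 in old cells, with a difference of -0.86 ± 0.35 (log2, SE, unadjusted p = 0.0281, adjusted p = 0.837). Its old IL27RA+ and old IL27RA- libraries overlapped. The summed level of the macrophage list was 1227 to 6278 normalized counts in old IL27RA+ against 703 to 1528 in old IL27RA- libraries, and 4127 to 6162 in young IL27RA+ against 1241 to 1811 in young IL27RA- libraries. Of its 14 genes, 13 had reads in old IL27RA+, 10 in old IL27RA- cells, and 13 in each young group, with Marco at 0 in both IL27RA+ groups, Adgre1, Marco, Cd5l and Timd4 at 0 in old IL27RA- and Adgre1 in young IL27RA- cells. Of the 13 tested, 12 had a positive IL27RA+ minus IL27RA- difference averaged over the ages, with a median of 3.76 (log2), and 3 were called higher. Its part in the values of the family genes was not tested.

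Levels between genes were compared per kilobase of exon, since longer transcripts give more reads. Over the 12 libraries the median level was 876 normalized counts per kilobase for Ebi3, 360.1 for Il11ra1, 356 for Il27ra, 166 for Il27, 58.0 for Il6st, 7.50 for Il6ra, 5.39 for Osmr and 0 for Lifr. Without division by length the first places went to Il11ra1 (median 1610 normalized counts), Il27ra (1244) and Ebi3 (1011), because the exons of Ebi3 cover 1154 bases against 4471 for Il11ra1 and 3495 for Il27ra. The chain that binds IL27 was thus above the gp130 chain it pairs with in the per-length order. Exon lengths are unions over annotated isoforms, so genes with long unused exons are placed too low.

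The order of the levels per kilobase differed between the ages. In old IL27RA+ cells it opened with Il27ra at 370 ± 52.2 normalized counts per kilobase (SD, n = 3) and Il11ra1 at 334 ± 49.1, which overlapped within 1 SD, followed by Ebi3 at 199.9 ± 84.2 and Il27 at 158 ± 101, which also overlapped. Il6st at 56.5 ± 4.76 overlapped Il27, Osmr at 12.4 ± 1.92 stood apart from its neighbours, and Il6ra at 5.24 ± 3.34 overlapped Lifr at 1.27 ± 1.84. In old IL27RA- cells each neighbouring pair overlapped within 1 SD except Il27 and Osmr. There, Il11ra1 at 401 ± 100.2, Il27ra at 395 ± 80.8, Ebi3 at 352 ± 88.9 and Il27 at 249 ± 58.0 came before Osmr at 51.9 ± 20.8, Il6st at 46.7 ± 39.0 and Il6ra at 8.85 ± 9.61.

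In young cells Ebi3 stood alone at the top, at 1719 ± 338 normalized counts per kilobase in IL27RA+ and 1415 ± 147 in IL27RA- cells (SD, n = 3 each). Il11ra1 and Il27ra came next and overlapped within 1 SD in both fractions, with 312 ± 52.0 and 311 ± 53.1 in young IL27RA+ cells, against 427 ± 11.1 and 352 ± 131 in young IL27RA- cells. Osmr, above Il6ra in both old groups, was below it in both young groups, with 0.164 normalized counts per kilobase against 17.3 ± 12.1 for Il6ra in young IL27RA+ cells, and with 0.0219 against 11.4 ± 14.4 in young IL27RA- cells.

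**Figure D3:**
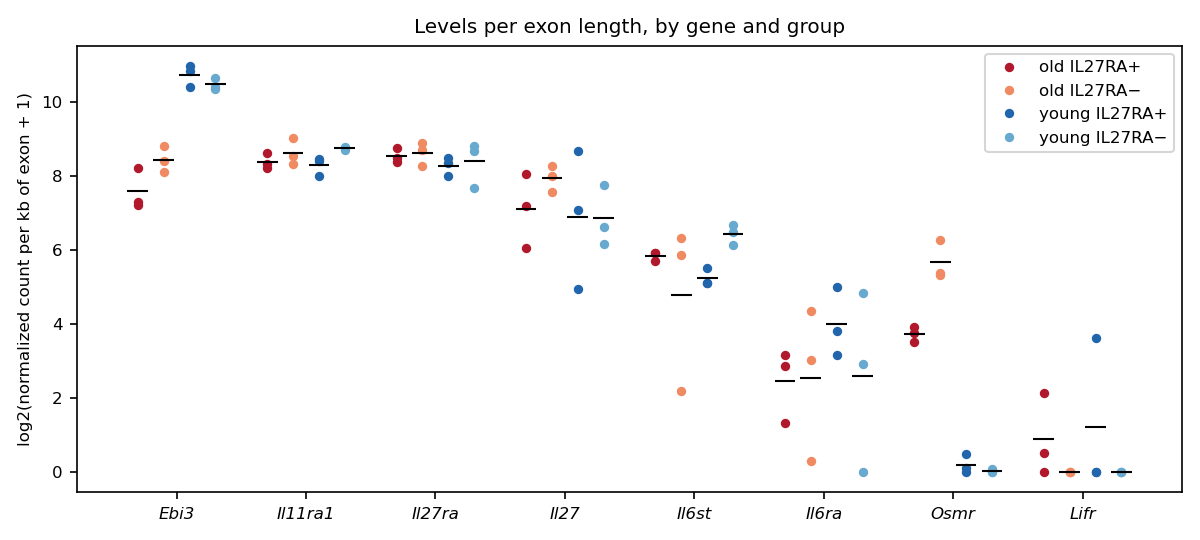
Level of the 8 family genes per kilobase of exon, as log2(normalized count per kilobase + 1) on the y axis, with 1 point per library and a line at the mean of the log2 values of each group. Genes run from the highest to the lowest median of the 12 libraries, and within each gene the groups run from old IL27RA+ on the left to young IL27RA- on the right. Ebi3 is highest in both young groups, and Osmr is near 0 in both young groups and above 3 on this scale in every old library.

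The genes whose levels were most like those of the family members were named by Pearson's r of the log2 values over the 12 libraries, among the genes tested. The 12 libraries share their 4 groups, so r carries the age difference, and it is a description only. For Osmr these were Sel1l3 (r = 0.972), Ntf3 (0.970), which encodes neurotrophin 3, and Mab21l2 (0.959). Each of the 3 was at 0 to 5.73 normalized counts in young libraries, while Sel1l3 reached 23.9 to 92.9, Ntf3 44.4 to 314 and Mab21l2 163 to 765 in old libraries.

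For Ebi3 they were Gimap7 (r = 0.951) and Gimap3 (0.921), GTPases of the immunity-associated family, and Lsp1 (0.934), an actin-binding protein of leukocytes. Gimap7 stood at 0 to 0.924 normalized counts in old libraries, against 71.6 to 229.5 in young libraries. Gimap3 stood at 44.5 to 475 in old libraries, against 442 to 3743 in young libraries, and Lsp1 at 1660 to 2674 in old libraries, against 3066 to 4808 in young libraries. The ranges separated for Gimap7 and Lsp1 and overlapped for Gimap3.

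The nearest genes to Il27ra and Il6st followed single libraries. For Il27ra they were Begain (r = 0.933), Epb4.1l5 (0.909) and Susd3 (0.891), all of them lowest in young IL27RA- replicate 2, the library in which Il27ra was lowest. For Il6st they were Trim3 (0.959), Pepd (0.953) and Pdhb (0.944), all lowest in old IL27RA- replicate 1, as was Il6st.

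Osmr and Lifr are adjacent on mouse chromosome 15, with 0 protein-coding genes between them in the RefSeq order, yet Lifr had no reads in 4 of the 6 old libraries in which Osmr was present. Neighbouring genes were looked at after the values of Osmr and Ebi3 had been seen. On the other side of Osmr, Rictor, a subunit of the mTORC2 kinase complex, had an age difference of 0.01 ± 0.17 (log2, SE, limma adjusted p = 0.990). The next gene beyond it, Fyb, an adapter of T cells and platelets, was higher in old cells by 1.84 ± 0.24 (adjusted p = 0.000726). Of the 4 neighbours of Ebi3 none was called: the differences were -1.19 ± 0.86 for Zfp119b and 0.00 ± 0.34 for Zfp959 on one side, and -0.19 ± 0.34 for Yju2 and -1.43 ± 1.42 for Shd on the other.

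The rest of the pathway was read from lists of ligands, receptors, signal transducers, inhibitors, targets and other cytokine receptors. Of 80 genes of these lists that were tested, 5 were called in old against young cells averaged over the fractions, 3 higher and 2 lower, and 0 were called in IL27RA+ against IL27RA- cells averaged over the ages. Over all genes tested, the age comparison called 1.88% and the sorted comparison 0.190%. The same shares apply to the genes called in the single lists below. At an unadjusted limma p under 0.05 there were 2221 of all 14723 genes in the age comparison and 1174 in the sorted comparison. Those counts stand beside the unadjusted counts of the lists. In the sorted comparison 9 of the 80 had an unadjusted p under 0.05, and limma voom called 0.

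Of 10 further ligands of the gp130 family, 8 were in the table and 5 were tested, and none was called in the age comparison by limma or by limma voom, with 2 at an unadjusted p under 0.05. Their median difference was 0.21, beside 0.06 over all genes. Oncostatin M itself, encoded by Osm, stood at 202, 535 and 190 normalized counts in old IL27RA+ libraries and at 160, 226 and 92.9 in old IL27RA- libraries, against 235, 218 and 85.3 in young IL27RA+ libraries and 82.8, 306 and 3.22 in young IL27RA- libraries. All groups overlapped, and the age difference was 1.20 ± 0.85 (log2, SE, limma adjusted p = 0.549). Ctf2, a cardiotrophin gene, differed by -3.30 ± 1.23 (adjusted p = 0.213) and Clcf1, a ligand of the CNTF receptor, by -1.17 ± 0.47 (0.254). In the sorted comparison the smallest p among the ligands were those of Osm, at 1.33 ± 0.85 (adjusted p = 0.751), and Ctf1, at -0.34 ± 0.32 (0.870).

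Il12a encodes the chain that joins EBI3 in IL35. It stood at 563, 891 and 826 normalized counts in old IL27RA+ libraries and at 579, 497 and 642 in old IL27RA- libraries, against 364, 385 and 492 in young IL27RA+ libraries and 85.2, 818 and 94.6 in young IL27RA- libraries. Only young IL27RA- replicate 2 reached the old levels. Its age difference, 1.23 ± 0.47, did not pass (log2, SE, limma adjusted p = 0.231). The IL12 receptor chains Il12rb2 and Il12rb1 differed by -1.54 ± 0.65 (adjusted p = 0.279) and -0.32 ± 0.66 (0.874), and they were the 2 tested of 6 listed receptors.

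None of the 13 signal transducers tested, which include the JAK kinases and STAT factors, was called, and 2 had an unadjusted p under 0.05 in the age comparison. Their median age difference was -0.06, beside 0.06 over all genes. Stat3, the main STAT factor below gp130, differed by 0.49 ± 0.18 (log2, SE, limma adjusted p = 0.209) and the adapter Gab2 by 1.18 ± 0.53 (0.313). Between the sorted fractions, the kinase gene Jak1 differed by -0.31 ± 0.15 (adjusted p = 0.655) and Stat4 by -0.44 ± 0.22 (0.655).

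Of the 9 inhibitors tested, Socs3 was called higher and Socs2 lower in old cells. Socs3, which binds gp130 and is induced by STAT3, stood at 578, 1640 and 772 normalized counts in old IL27RA+ libraries and at 1286, 1461 and 2861 in old IL27RA- libraries, against 120, 60.2 and 285 in young IL27RA+ libraries and 213, 7.16 and 205 in young IL27RA- libraries. All old libraries were above all young libraries, as was so in either direction for 2.06% of genes tested. The difference was 3.72 ± 0.71 (log2, SE, limma adjusted p = 0.0151). Without old IL27RA+ replicate 2 the adjusted p was 0.0529.

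Socs2, known for limiting growth hormone signalling, went the other way. It stood at 61.0, 29.7 and 23.4 normalized counts in old IL27RA+ libraries and at 169, 171 and 1.26 in old IL27RA- libraries, against 1277, 561 and 1354 in young IL27RA+ libraries and 1935, 678 and 1209 in young IL27RA- libraries. The highest old library was below the lowest young library, among the 2.06% of genes tested that separated in either direction. The difference was -4.82 ± 0.89 (log2, SE, limma adjusted p = 0.0118), called in all 12 fits that left out a library. The other inhibitors were not called, the nearest by the rule being Cish, at -1.06 ± 0.31 (adjusted p = 0.106). In the sorted comparison Cish, at -0.56 ± 0.31 (adjusted p = 0.702), and Pias1, at -0.30 ± 0.18 (0.736), had the smallest p.

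Of 22 STAT target genes, 20 were tested, 1 was called higher in old cells and 0 lower, and 17 differences were positive, with a median of 0.54 beside 0.06 over all genes. The called gene was Pim2, a serine-threonine kinase that promotes survival. It stood at 3162, 2932 and 2662 normalized counts in old IL27RA+ libraries and at 1839, 3408 and 1656 in old IL27RA- libraries, against 803, 957 and 460.2 in young IL27RA+ libraries and 1385, 823 and 939 in young IL27RA- libraries. All old libraries were above all young libraries, where 2.06% of genes tested separated in either direction. The difference was 1.57 ± 0.24 averaged over the fractions (log2, SE, limma adjusted p = 0.00309), 2.04 ± 0.34 in IL27RA+ cells (0.0180) and 1.09 ± 0.34 in IL27RA- cells (0.190).

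The Pim2 call in IL27RA+ cells was lost without each of the 3 old IL27RA+ libraries and without young IL27RA+ replicate 3, with adjusted p of 0.0644 to 0.128, while the averaged call was kept in all 12 such fits. Cebpd, a transcription factor of the acute phase response, differed by 1.55 ± 0.48 (log2, SE, limma adjusted p = 0.128). Between the sorted fractions, the interferon-responsive factor gene Irf8 differed by 3.63 ± 1.02 (adjusted p = 0.259) and Il4ra, the receptor for IL4, by -0.86 ± 0.27 (0.336). The summed neutrophil list was at 7796 to 10650.0 normalized counts in old IL27RA+ and 9052 to 13163 in old IL27RA- libraries, against 4075 to 5484 in young IL27RA+ and 3647 to 4436 in young IL27RA- libraries. Most of the sum was Prtn3, a granule protease gene, which averaged 9283 and 10691 in old IL27RA+ and old IL27RA- cells, against 4438 and 4064 in young IL27RA+ and young IL27RA- cells. Of the 6 neutrophil genes tested, 2 had a positive averaged age difference, with a median of -0.24 (log2), and 1, Prtn3, was called. The part of these markers in the pathway's values was not tested.

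Among the other cytokine receptors, 35 of 36 listed were in the table and 30 were tested, 1 was called higher and 1 lower in old cells, and the median difference was -0.01 beside 0.06 over all genes. Among the 7 tested family members the counts were likewise 1 higher and 1 lower, with a median of -0.01. Il2rg, the common gamma chain of lymphocyte receptors, differed by 0.61 ± 0.15 (log2, SE, limma adjusted p = 0.0467). Il10rb, a chain of the IL10 receptor, differed by -0.96 ± 0.21 (adjusted p = 0.0328). The call for Il2rg was lost in 11 of 12 fits that left out a library (adjusted p of 0.0549 to 0.116; kept only without young IL27RA+ replicate 1), and that for Il10rb in 8 of 12 (0.0561 to 0.0897; kept without old IL27RA+ replicate 1, old IL27RA- replicate 1 and young IL27RA- replicates 1 and 2). In the sorted comparison Il2rg differed by -0.55 ± 0.15 (adjusted p = 0.212).

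**Figure D4:**
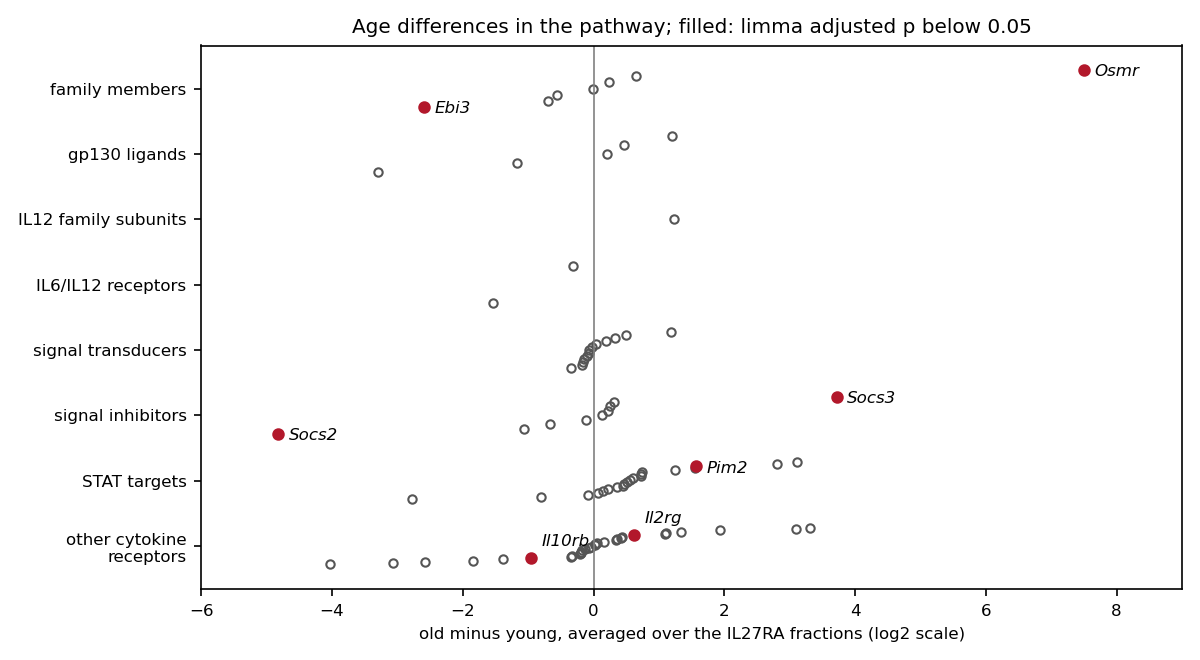
Age difference of each tested gene, old minus young averaged over the IL27RA fractions (x axis, log2 scale), by list (rows), with filled points for a limma adjusted p under 0.05. The filled points are Osmr at 7.50, Socs3 at 3.72, Pim2 at 1.57 and Il2rg at 0.61 to the right of 0, and Socs2 at -4.82, Ebi3 at -2.59 and Il10rb at -0.96 to the left.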

How the data were processed

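Expression of all genes was measured by RNA sequencing of 12 stem cell libraries, 3 in each of 4 groups, which were taken from the sample titles and ages. Tools were, per the submitters' processing notes and without role or order, DESeq2, HTSeq, TopHat2 2.1.1 and FastQC 0.11.5, and the genome build was not given in the sources used here. The deposited log2 values have 1 column per library and were found to equal log2(reads / size factor + 1). In 1 of the authors' deposited columns, that of young IL27RA- replicate 2, 1 damaged line of the gene Mtbp broke the log2 scale and was left out. Undoing these steps returned whole reads (tolerance 0.001 reads) in 100% of nonzero values. Of 20473 lines, 15 exact repeats were also left out and 21 names turned into dates were restored, leaving 20457 genes. Exon lengths for 19007 genes came from GENCODE M21. Log2 values of libraries correlated with r of 0.784 to 0.868 within groups and 0.750 to 0.861 across groups, so no library repeated another.

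Differences were tested with limma 3.58.1 in R 4.3.3 (trended variance, 1 mean per group over all 12 libraries, 8 residual and 6.62 prior degrees of freedom) on genes with at least 10 normalized counts in at least 3 libraries, which left 14723 genes. P-values were two-sided and adjusted by Benjamini-Hochberg over all of these genes, with a threshold of 0.05. Libraries with the same number were not taken as pairs. The fit was run on simulated data whose changed genes were drawn from those with reads in all 12 libraries. Genes without reads in some libraries, such as Osmr, were not covered, and the outcome is not reported here. Alternatives were no filter, a stricter filter (6 libraries), a pseudocount of 10, scaling to total reads, voom on recovered reads, library weights, a replicate block, only the groups compared, and leaving out each library. Leaving out together the 2 libraries with the lowest weights was added after seeing the data. The members, gene lists and tests were chosen with earlier results of these data known. Genes named outside the family were, for each list, those called in any comparison and the 2 with the smallest p in each averaged comparison, and the 3 genes most correlated with Il27ra, Il6st, Ebi3 and Osmr, and 1 gene named by this rule is not reported here. Promoter sequences came from RefSeq.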

Additional observations from a re-analysis of the deposited data

How the results depend on the processing

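Of 588 differences of single members with a library left out, 531 kept their direction and their side of the threshold, 10 lost the call and 47 changed direction, and of 420 under the other settings 403, 7 and 10 did so. The calls for Ebi3 and Osmr averaged over the fractions were kept in every alternative run. In IL27RA+ cells the main count of 2 members was 1 with no filter, voom, the replicate block or only the groups compared (Osmr adjusted p of 0.0809, 0.106, 0.0573 and 0.0930), and 1 to 2 with a library left out. In IL27RA- cells it was 0 with only the groups compared (limma adjusted p of 0.101 for both genes, since 3 against 3 libraries then give the spread), 1 without the 2 least weighted libraries, and 1 to 2 with a library left out. The replicate block changed no other member call. Deviations from the group means correlated with r of -0.054 to 0.107 between libraries of the same number, yet 7 of 12 libraries correlated best with a library of their own number. These values do not settle whether the numbers mark pairs, and the main fit did not take them as pairs. Among the pathway genes, Il2rg also lost its call with no filter, total scaling, voom, the block and without the 2 least weighted libraries (adjusted p of 0.0704, 0.0743, 0.0596, 0.0600 and 0.0603), and Pim2 in IL27RA+ cells with voom (0.0556).

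With a library left out, differences that changed direction had these log2 ranges. For Il11ra1, -0.10 to 0.068 (age, averaged), -0.042 to 0.19 (age, IL27RA+) and -0.31 to 0.032 (age, IL27RA-). For Il27, -0.77 to 1.10 (age, IL27RA+), -0.85 to 0.087 (sort, averaged), -0.85 to 1.01 (sort, young) and -1.86 to 0.0085 (interaction). For Il27ra, -0.13 to 0.44 (age, IL27RA-), -0.27 to 0.010 (sort, averaged), -0.25 to 0.052 (sort, old), -0.47 to 0.10 (sort, young) and -0.18 to 0.39 (interaction). For Il6ra, -1.84 to 0.16 (age, averaged), -1.91 to 2.09 (age, IL27RA-), -1.44 to 1.48 (sort, old) and -3.86 to 0.14 (interaction). For Il6st, -0.97 to 0.14 (age, averaged), -0.73 to 0.38 (sort, averaged) and -0.26 to 1.97 (sort, old).

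Other reversals were Il6ra with a pseudocount of 10 (-0.046 for age in IL27RA-, -0.12 for sort in old) or library weights (-0.66 for sort in old), and Il6st averaged over the ages with total scaling (0.013) or voom (0.054). Without the 2 least weighted libraries they were Il6st (0.15 for age averaged, -0.26 for sort in old) and Il6ra (-0.20 for age in IL27RA-, -0.66 for sort averaged, -1.44 for sort in old). None of these differences was called, and the cause was not tested.

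Over all genes, leaving out a library moved the 277 called for age averaged to 139 to 433, the 62 in IL27RA+ to 4 to 97, the 99 in IL27RA- to 32 to 278, the 28 for sort averaged to 6 to 97, the 4 in old to 1 to 25, the 3 in young to 0 to 49 and the 0 of the interaction to 0 to 5. Age in IL27RA+ gave 13 with voom, 137 with weights and 37 with only its groups. Age in IL27RA- gave 64 with no filter, 0 with only its groups and 25 without the 2 least weighted libraries. Sort averaged gave 14 with no filter, 6 with voom, 47 with weights and 18 without those libraries. Sort in old gave 10 with the larger pseudocount, 0 with voom, 86 with weights, 2 with the replicate block, 33 with only its groups and 13 without those libraries. Sort in young gave 8 with no filter, 6 with the larger pseudocount or without those libraries, and 0 with voom, weights, the block or only its groups. Depth limits Osmr in young cells and Lifr in the libraries with few or no reads. Dividing by exon length changed the order of the members, as given above.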
